A study of Homo sapiens with 25 samples.

Results

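The collagen genes were followed at the RNA level in hiF-T cells. All protein-coding genes whose symbol has the form COL, a number, A and a number were taken, which gave 44 of the 58302 genes counted. They were sorted by known protein architecture into 11 fibrillar chains, 6 type IV chains of basement membranes, 5 type VI chains of beaded filaments, 10 FACIT chains (fibril-associated collagens with interrupted triple helices), 3 short-chain, 4 transmembrane and 2 multiplexin chains, with 3 chains left in a group of anchoring fibril and other collagens.

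hiF-T is a human line from BJ skin fibroblasts, labelled as wild type and as fibroblast-like cells with an inducible hTERT (the catalytic subunit of telomerase), and every library of both experiments comes from it. Whether the line is a single clone is not given in the sources used here. Poly(A) RNA was sequenced in bulk from 25 libraries. In the first experiment untreated cells were sorted on a dye, a sort that the series describes as one by proliferation status, into gates labelled low, midlow, midhigh and high accumulation dye, beside ungated cells, each with 4 biological replicates (20 libraries). The drug experiment has 5 libraries: DMSO (the solvent) as biological replicate 1, no drug as biological replicate 2, LSD1 inhibition as replicates 1 and 2, and DOT1L inhibition as replicate 1. LSD1 is a histone lysine demethylase and DOT1L a histone lysine methyltransferase. The labels name neither compound, dose nor exposure time. Which dye level belongs to slowly dividing cells is not given in them. Nothing states that the replicates came from separate cultures, so p-values measure the spread between these libraries.

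Collagens are secreted or membrane-bound proteins built as triple helices, in which glycine recurs at a fixed interval along the helical part. Types I, III and V assemble into the banded fibrils of skin, type IV forms the sheets of basement membranes, and type VI forms beaded filaments around cells. Fibroblasts are the main source of collagen in the dermis, and the chains are hydroxylated, folded, secreted, trimmed and cross-linked by dedicated enzymes before they bear load.

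The helical repeat is visible in the genes. In the coding exons of the fibrillar chains (649 exons of 11 chains, 1 GENCODE 29 transcript a gene), 82.9% had a length divisible by 9 bases, which is one Gly-X-Y triplet, and 47.0% were exactly 54 bases long. In the type IV chains these shares were 46.3% and 4.08%, and the 3 short-chain genes, with a median of 2 coding exons, had none of either kind. A 54-base exon is shown for 3 fibrillar chains whose RNA differed most between the dye gates or was most abundant, on the coding strand of GRCh38, with the glycine codon (GGN) that opens each Gly-X-Y triplet in capitals. They lie at chr7:94404693-94404746 (plus strand, exon 8 of COL1A2), chr2:188988081-188988134 (plus strand, exon 6 of COL3A1) and chr1:103008463-103008516 (minus strand, exon 15 of COL11A1).
COL1A2: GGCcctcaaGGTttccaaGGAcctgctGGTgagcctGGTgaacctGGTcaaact
COL3A1: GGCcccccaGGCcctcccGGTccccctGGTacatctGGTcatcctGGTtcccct
COL11A1: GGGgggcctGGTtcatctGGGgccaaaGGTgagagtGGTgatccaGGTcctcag
Each exon holds 6 whole triplets and a glycine codon at the first place of each. The COL11A1 exon has a further glycine codon at the second place of its first triplet, left in lower case, which makes 7.

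The libraries held between 15015039 and 20030093 counts in genes, so that 3 counts, the upper limit that a count of 0 allows, came to 0.15 to 0.2 CPM. CPM stands for counts per 1000000 counts of the library, here with the library size scaled by TMM within each experiment. Mitochondrial genes took 2.19% to 3.12% of gene counts. Of 8 fibroblast markers 7 had a mean over 1 CPM, led by VIM. Of 6 epithelial genes KRT18 and KRT8 had a mean over 1 CPM, and CDH1, KRT5 and KRT14 stayed under 1 CPM in every library, so that the list summed to 128 to 310 CPM in low dye and 132 to 335 CPM in high dye. Of 5 endothelial genes TEK and KDR had a mean over 1 CPM, and PECAM1, CDH5 and VWF stayed under 1 CPM in every library, with sums of 65.6 to 97.6 CPM in low dye and 76.9 to 96.1 CPM in high dye. The fibroblast list summed to 2520 to 2760 CPM in the low dye libraries and to 1940 to 2560 CPM in the high dye libraries. The 10 proliferation genes listed, all over 1 CPM on average, summed to 2150 to 2670 CPM in low dye, 2250 to 2640 CPM in midlow, 1260 to 2150 CPM in midhigh, 987 to 2070 CPM in high dye and 1870 to 2390 CPM in ungated libraries, so the low and high dye libraries did not overlap. A list of 4 smooth muscle genes, of which ACTA2 and CNN1 were over 1 CPM and DES was under 1 CPM in every library, summed to 13.0 to 61.0 CPM in low dye and 25.2 to 133 CPM in high dye, which overlap. The part of proliferation and smooth muscle genes in the collagen differences was not tested.

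Of the 44 collagen genes, 27 passed the filter on low counts in the sort experiment and 30 in the drug experiment, and 14 stayed under 1 CPM in all 25 libraries. None was at 0 in every library. The genes that did not pass include chains known from cartilage (COL2A1, COL9A1, COL9A3), from kidney and lung basement membranes (COL4A3, COL4A4) and the type VI chains COL6A5 and COL6A6. Over the 20 sort libraries, 13 collagen genes averaged over 100 CPM and 6 over 1000 CPM. COL6A3, the long chain of type VI collagen, took 27.3% of all collagen counts, COL1A1 16.3% and COL1A2 14.9%. The 5 most counted genes (these 3 with COL6A2 and COL6A1) took 76.5% and the 12 most counted 97.9%. Counts rise with transcript length, and per kilobase of transcript the order differed: COL1A2 had the highest mean level at 533 CPM per kb, followed by COL6A2 at 509, COL6A3 at 490, COL1A1 at 469 and COL6A1 at 395 CPM per kb. The type IV chains COL4A2 and COL4A1 followed at 192 and 137 CPM per kb. No replicate spread was set on these means across genes, and the first 4 lay close together. Their order also depends on the 1 transcript length taken for each gene.

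**Figure D1:**
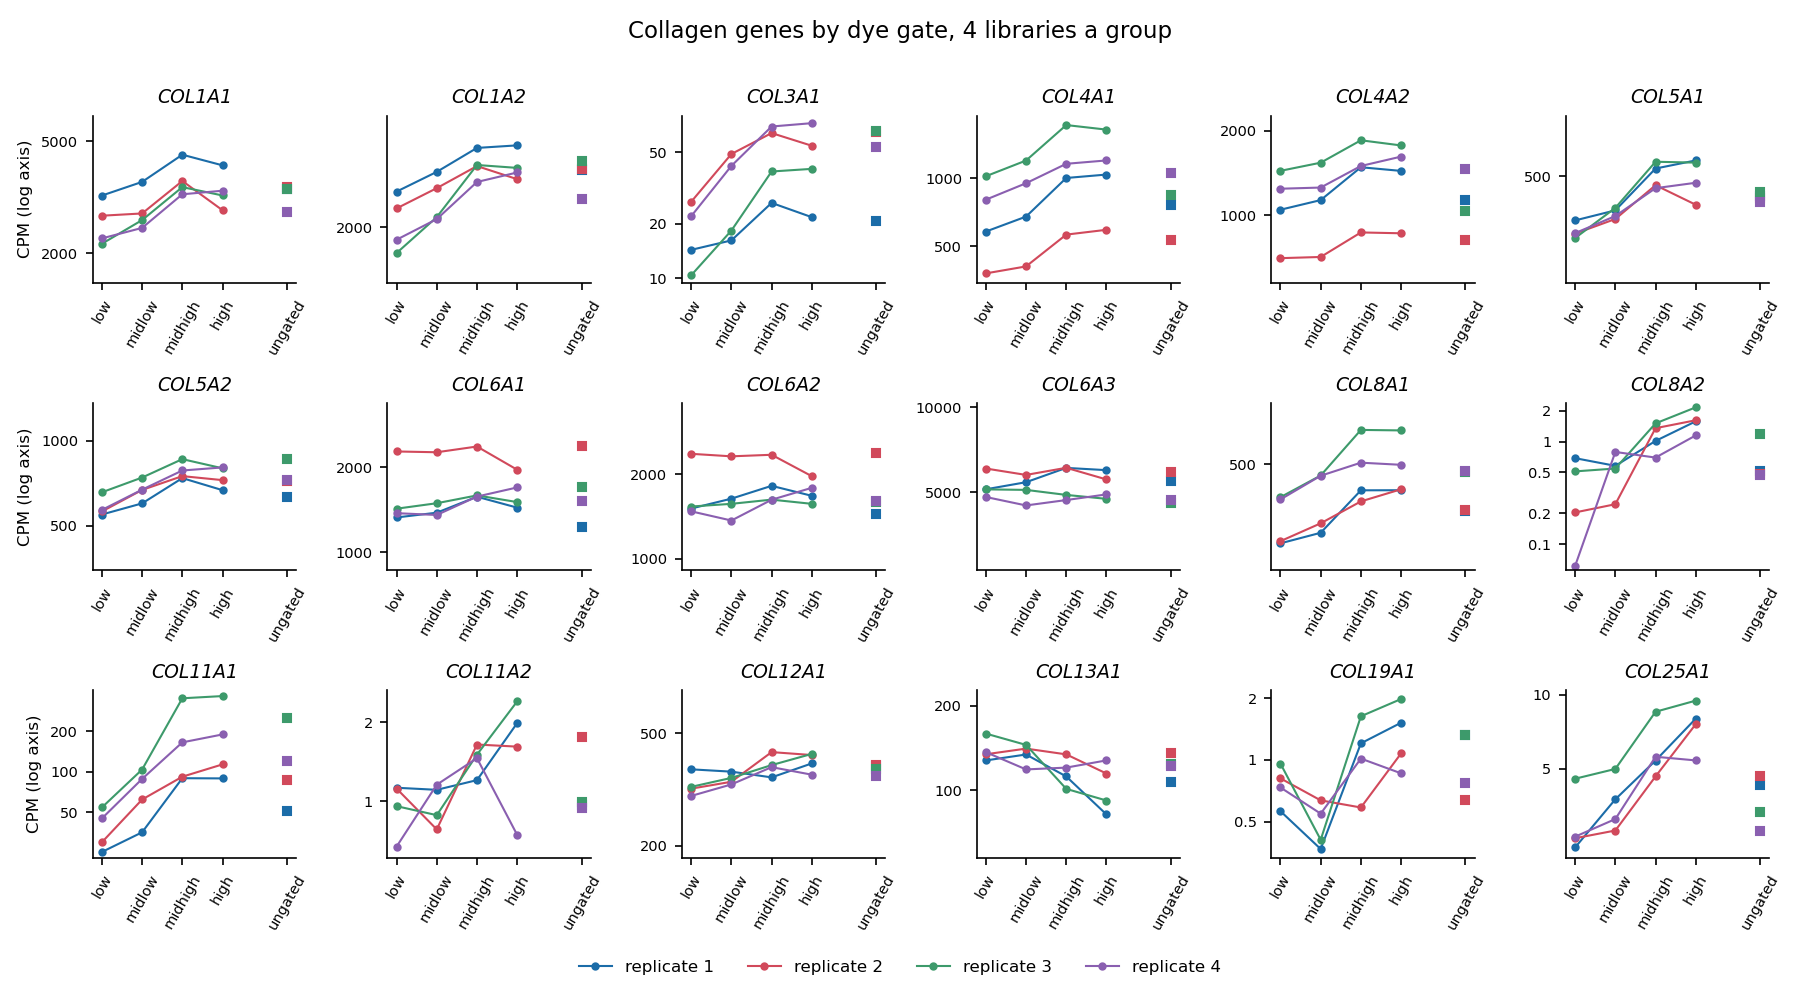
Level of 18 collagen genes in the sort experiment, in CPM on a logarithmic axis, by dye gate. Each line joins the 4 gates of 1 replicate number and the squares are the ungated libraries. COL11A1 rises from 25.4 to 54.4 CPM in low dye to 89.4 to 366 CPM in high dye, while COL6A3 stays between 4483 and 6099 CPM in all 20 libraries.

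The first comparison asked how cells of the high dye gate differ from cells of the low dye gate. In high dye 8 collagen genes were higher and 1 was lower, of 27 tested, by edgeR's quasi-likelihood test at an adjusted p under 0.05, where 17.7% of all 14592 genes tested were called (9.39% higher, 8.35% lower). The median log2 fold change was 0.41 over the collagen genes and 0.01 over all genes, and 23 of 27 were above 0. Libraries with the same replicate number deviated together, and with the number as a block 19 collagen genes were higher and 1 lower, where 37.2% of all genes were called (19.8% higher, 17.4% lower). Without high dye replicate 3 and with no block, 5 remained: COL1A2, COL5A1, COL8A2, COL11A1 and COL25A1. In bulk RNA, fewer cells that make a transcript and less of it per cell cannot be told apart.

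Of the 9 fibrillar chains tested, 5 were called, all higher (7 with the block). COL11A1, a minor chain that helps set fibril diameter and is best known from cartilage, changed most. It was measured at 25.4, 29.96, 54.4 and 45.1 CPM in the low dye libraries and at 89.4, 114, 366 and 189.9 CPM in the high dye libraries (replicates 1 to 4 in this and all such lists). Each high dye library was above each low dye library. Midlow libraries stood at 35.5, 62.3, 104 and 88.6 CPM and midhigh libraries at 89.7, 92.1, 353 and 166 CPM, above the low dye library of the same replicate in each case. The means differed 4.91-fold (38.7 ± 13.4 against 189.8 ± 125 CPM, SD, n = 4), and the log2 fold change was 2.30 ± 0.55 (SE, edgeR adjusted p = 0.0080). Replicate 3 was the highest and replicate 1 the lowest in all 5 groups, and without high dye replicate 3 the log2 fold change was 1.76 (edgeR adjusted p = 0.044). The gene lies on the minus strand of chromosome 1 (GRCh38, GENCODE 29 span 102876467 to 103108872).

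The stretch before a gene's RefSeq start is printed for 5 collagen genes: COL11A1, COL8A2 and COL25A1, which were more than 2-fold higher in high dye with no overlap, COL13A1, the gene called lower, and COL6A2, an abundant gene with similar means. Each is up to 250 bases from RefSeq (GRCh38.p14), 5′ to 3′ on the gene's strand, shortened where needed so that it holds no base that GENCODE 29 gives to an exon. Shortening removed the bases nearest the RefSeq start, and windows trimmed for comparison were cut at the same end. Capitals mark exact matches on either strand to 4 motifs: the CCAAT box (CCAAT), the GC box (GGGCGG), the TATA box (TATAAA) and the AP-1 site (TGACTCA, the same site as TGAGTCA on the other strand), and overlapping GC boxes merge into 1 run of capitals. A match describes letters only. The COL11A1 stretch is chr1:103108523-103108772, minus strand, and lies inside the GENCODE span of the gene, because that annotation also has a transcript with a first exon further upstream.
COL11A1: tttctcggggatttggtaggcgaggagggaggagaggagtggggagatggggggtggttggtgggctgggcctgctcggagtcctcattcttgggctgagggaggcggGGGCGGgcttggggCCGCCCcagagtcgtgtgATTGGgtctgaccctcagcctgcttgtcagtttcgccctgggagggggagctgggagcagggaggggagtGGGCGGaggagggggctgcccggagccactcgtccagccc
It holds 3 GC boxes and 1 CCAAT box. Of all 35116 windows of this length in the table, 42.6% hold a GC box, 32.0% a CCAAT box, 10.7% a TATA box and 4.2% an AP-1 site. Among 44 windows of 32 collagen genes these were 24 (54.5%), 12 (27.3%), 8 (18.2%) and 0.

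COL3A1, the chain of the type III collagen of distensible tissues such as vessels and skin, was a low transcript here, at 14.3, 26.5, 10.4 and 22 CPM in the low dye libraries and at 21.8, 54.2, 40.3 and 72.3 CPM in the high dye libraries. The groups overlapped, since high dye replicate 1 lay below low dye replicates 2 and 4, while each replicate was higher in high dye than in low dye. The log2 fold change was 1.36 ± 0.45 (SE, edgeR adjusted p = 0.042, 2.58-fold between means). The call held in 2 of 8 fits that left out 1 library, with a largest edgeR adjusted p of 0.12, and it was lost without low dye replicate 1, 3 or 4 and without high dye replicate 2, 3 or 4. With the block it was called.

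COL1A2, the partner of COL1A1 in type I collagen, stood at 2679, 2335, 1620.5 and 1807 CPM in the low dye libraries and at 3910.5, 2966, 3252 and 3133 CPM in the high dye libraries. Every high dye library exceeded every low dye library. High dye exceeded low dye by a log2 fold change of 0.65 ± 0.16 (SE, adjusted p = 0.0082 in edgeR, 1.57-fold between means). COL1A1 itself stood at 3212, 2724, 2166 and 2262 CPM in the low dye libraries and at 4112, 2848, 3214 and 3341 CPM in the high dye libraries, and these overlap because low dye replicate 1 exceeded high dye replicate 2. Its log2 fold change was 0.38 ± 0.14 with an edgeR adjusted p of 0.074, and 0.00057 with the block. Within each replicate COL1A1 was higher in high dye than in low dye.

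COL5A1, a chain of the type V collagen that starts fibrils, was the collagen gene with the smallest adjusted p. It stood at 348, 312, 301 and 314 CPM in the low dye libraries and at 568, 395, 558 and 473 CPM in the high dye libraries. No low dye library reached the lowest high dye library. Its log2 fold change was 0.65 ± 0.10 (SE, edgeR adjusted p = 0.00055, 1.56-fold between means). Its partner COL5A2 stood at 548, 561, 657 and 569 CPM in the low dye libraries and at 668, 725, 799 and 805 CPM in the high dye libraries, again without overlap. The COL5A2 log2 fold change was smaller, 0.36 ± 0.09 (SE, edgeR adjusted p = 0.014, 1.28-fold between means), and without high dye replicate 3 the adjusted p was 0.054. COL11A2, COL24A1, COL1A1 and COL27A1 were the fibrillar genes tested and not called, with log2 fold changes of 0.79, 0.42, 0.38 and -0.17.

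**Figure D2:**
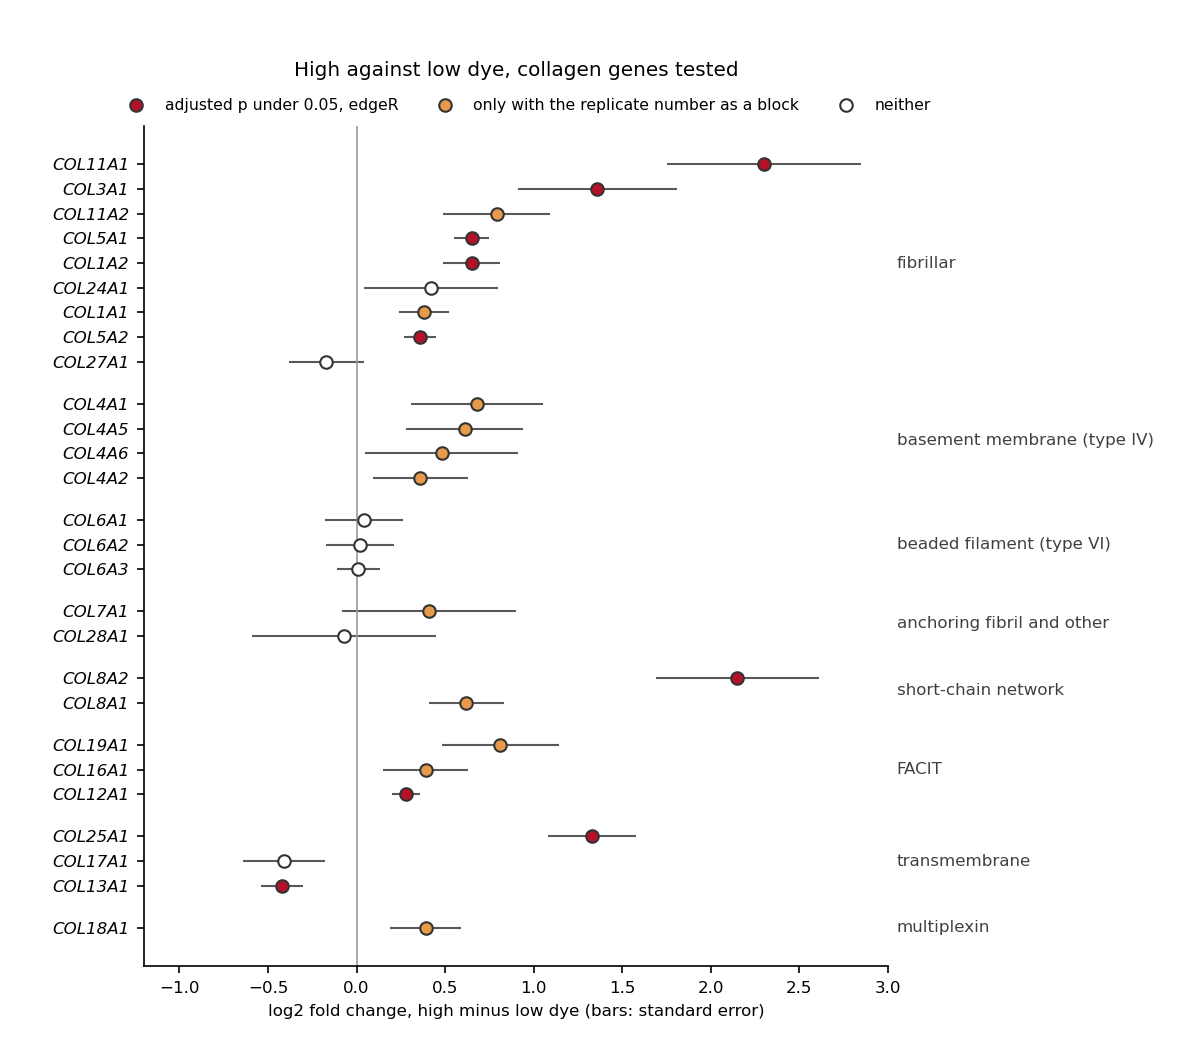
log2 fold change of the 27 collagen genes tested between high and low dye, by class, with the standard error as a bar (edgeR). Filled red points passed an adjusted p of 0.05, orange points passed it with the replicate number as a block, and open points passed neither. The fibrillar genes reach from -0.17 to 2.30, and the 3 type VI genes lie between 0.01 and 0.04.

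Of the 4 type IV genes tested, edgeR called 0 without the block (0 at an unadjusted p under 0.05, and 0 by DESeq2), and all 4 were called higher with it. Without the block, 32.2% of all genes had an unadjusted p under 0.05. COL4A1 and COL4A2 encode the chains found in nearly all basement membranes and lie head to head on chromosome 13, with 126 bases between their RefSeq starts. COL4A1 stood at 581, 379.7, 1021 and 804 CPM in the low dye libraries and at 1039, 592, 1642 and 1199.7 CPM in the high dye libraries. The groups overlapped widely, since replicate 3 was the highest and replicate 2 the lowest in each gate, yet in each replicate the high dye library exceeded the low dye library. The log2 fold change was 0.68 ± 0.37 (SE, edgeR adjusted p = 0.22), and the adjusted p was 3.7e-05 with the block. COL4A2 stood at 1048, 705, 1440.0 and 1244 CPM in the low dye libraries and at 1439, 864, 1772 and 1617 CPM in the high dye libraries, in the same order of replicates. Its log2 fold change was 0.36 ± 0.27 (SE, edgeR adjusted p = 0.38, and 0.0047 with the block). COL4A5 and COL4A6, a second head-to-head pair, on the X chromosome, had log2 fold changes of 0.61 and 0.48, with adjusted p of 0.21 and 0.47 in edgeR, and of 4.4e-06 and 0.016 with the block.

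Of the 3 type VI genes tested, edgeR called 0 with or without the block (0 at an unadjusted p under 0.05 without it, where 32.2% of all genes were, and 0 by DESeq2). COL6A1 stood at 1329, 2279, 1427 and 1376 CPM in the low dye libraries and at 1439.9, 1963, 1507 and 1698 CPM in the high dye libraries. Replicate 2 was the highest in both gates, and the groups overlapped. COL6A2 stood at 1510.5, 2363, 1535 and 1476 CPM in the low dye libraries and at 1676, 1968, 1569.6 and 1789 CPM in the high dye libraries, also highest in replicate 2. COL6A3 stood at 5116, 6064, 5113 and 4804 CPM in the low dye libraries and at 5983, 5545, 4732 and 4906 CPM in the high dye libraries. The log2 fold changes were 0.04 ± 0.22 for COL6A1, 0.02 ± 0.19 for COL6A2 and 0.01 ± 0.12 for COL6A3 (SE), with edgeR adjusted p of 0.92, 0.95 and 0.98. The COL6A2 stretch, shown as that of an abundant gene with similar means in both gates, is chr21:46097862-46098096, plus strand, 235 bases.
COL6A2: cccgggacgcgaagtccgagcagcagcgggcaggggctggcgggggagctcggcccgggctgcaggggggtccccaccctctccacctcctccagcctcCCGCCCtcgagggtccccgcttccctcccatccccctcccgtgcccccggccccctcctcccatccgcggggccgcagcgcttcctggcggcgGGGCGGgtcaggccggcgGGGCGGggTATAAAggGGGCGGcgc
It holds 4 GC boxes and 1 TATA box, and 40.7% and 10.5% of all windows trimmed to this length hold these motifs.

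Among the short-chain collagens, which form hexagonal lattices around vessels and in the cornea, COL8A2 was the gene with the second largest fold change at a level near 1 CPM. It stood at 0.689, 0.203, 0.512 and 0.0612 CPM in the low dye libraries and at 1.58, 1.61, 2.16 and 1.15 CPM in the high dye libraries, so that each high dye library exceeded each low dye library, and low dye replicate 4 was below the limit that a count of 0 allows. COL8A2 had a log2 fold change of 2.15 ± 0.46 (SE, edgeR adjusted p = 0.0045, 4.43-fold between means). Its abundant partner COL8A1 stood at 262, 267, 382 and 375 CPM in the low dye libraries and at 405, 408, 660 and 498 CPM in the high dye libraries, without overlap. The COL8A1 log2 fold change of 0.62 ± 0.21 (SE) had an edgeR adjusted p of 0.051, and of 1.1e-06 with the block. The COL8A2 stretch is chr1:36125223-36125472, minus strand.
COL8A2: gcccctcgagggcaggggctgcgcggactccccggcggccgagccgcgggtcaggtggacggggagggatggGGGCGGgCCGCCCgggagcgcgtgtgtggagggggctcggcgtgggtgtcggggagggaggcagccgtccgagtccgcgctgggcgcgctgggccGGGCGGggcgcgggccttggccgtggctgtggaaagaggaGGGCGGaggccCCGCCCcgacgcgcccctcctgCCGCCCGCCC
It holds 7 GC boxes and none of the other motifs.

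The transmembrane collagens held both a higher and a lower gene. COL25A1, a collagen of neurons whose shed part is found in amyloid plaques, stood at 2.38, 2.59, 4.54 and 2.63 CPM in the low dye libraries and at 8, 7.59, 9.47 and 5.4 CPM in the high dye libraries. The groups did not overlap. Between means the difference was 2.51-fold, and the log2 fold change 1.33 ± 0.25 (SE, edgeR adjusted p = 0.0024). Its stretch is chr4:109302753-109302908, minus strand, 156 bases.
COL25A1: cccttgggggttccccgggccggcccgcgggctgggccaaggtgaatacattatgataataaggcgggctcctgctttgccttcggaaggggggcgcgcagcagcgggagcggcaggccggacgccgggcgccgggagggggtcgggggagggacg
None of the 4 motifs occurs in it, where 26.9% of all windows trimmed to this length hold a GC box and 19.7% a CCAAT box. The bases cut next to the RefSeq start are not covered by that statement.

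COL13A1, which clusters receptors at the neuromuscular junction and also occurs in fibroblast adhesions, was the one collagen gene called lower. It stood at 128, 134, 159 and 137 CPM in the low dye libraries and at 82.1, 115, 92 and 128 CPM in the high dye libraries. High dye replicate 4 stood at 128 CPM, level with low dye replicate 1, so the groups touched, and the other high dye libraries lay below every low dye library. COL13A1 had a log2 fold change of -0.42 ± 0.12 (SE, edgeR adjusted p = 0.024, with the high dye mean at 0.747 times the low dye mean). The call held in 5 of 8 fits that left out 1 library, and was lost without high dye replicate 1, high dye replicate 3 or low dye replicate 3, and in a fit of the 2 groups alone. The stretch is chr10:69801656-69801866, plus strand, 211 bases.
COL13A1: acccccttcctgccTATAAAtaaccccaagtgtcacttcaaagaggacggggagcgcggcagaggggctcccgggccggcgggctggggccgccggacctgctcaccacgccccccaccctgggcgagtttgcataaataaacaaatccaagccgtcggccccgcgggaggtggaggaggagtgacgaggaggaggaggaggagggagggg
It holds 1 TATA box at its far end, as 7.88% of all windows trimmed to this length do. COL17A1, the hemidesmosome collagen, was at -0.41 on the same scale (edgeR adjusted p = 0.24).

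COL12A1, a FACIT chain that binds the surface of type I fibrils, stood at 373, 318, 323 and 300 CPM in the low dye libraries and at 391, 419, 423 and 357 CPM in the high dye libraries. The highest low dye library exceeded the lowest high dye library. The log2 fold change was 0.28 ± 0.08 (SE, edgeR adjusted p = 0.020, 1.21-fold between means), and the call was lost without high dye replicate 3, low dye replicate 3 or low dye replicate 4, in a fit of the 2 groups alone and with no filter on low counts. COL19A1 and COL16A1, the other FACIT genes tested, had log2 fold changes of 0.81 and 0.39 (edgeR adjusted p = 0.098 and 0.28, and 0.041 and 0.0029 with the block). COL7A1, the anchoring fibril chain that fastens epidermis to dermis, was higher in replicate 1 and lower in replicate 4 than in the other replicates of every group, from 71.8, 51.3, 36.7 and 20.3 CPM in low dye to 92.8, 54.7, 62.1 and 29.3 CPM in high dye. Its log2 fold change was 0.41 (edgeR adjusted p = 0.60, and 0.00097 with the block). For COL18A1, the source of endostatin, it was 0.39 (edgeR adjusted p = 0.19, and 0.0011 with the block). The kit does not mark strand, and 16.4% of the exon bases of COL18A1 lie under another gene, so reads of the 2 genes cannot be told apart there. In all, 7 of 27 genes (COL1A2, COL5A1, COL5A2, COL8A1, COL8A2, COL11A1 and COL25A1) had no overlap between high and low dye libraries, where 19.0% of all genes tested had none.

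Summed over all 44 genes, collagen took 1.731, 1.946, 1.605 and 1.568% of gene counts in the low dye libraries and 2.230, 1.975, 2.103 and 2.026% in the high dye libraries. Each high dye library was above each low dye library, and the mean difference was 0.371 percentage points ± 0.229 (SD over 4 replicates). Fibrillar chains went from 0.6842, 0.6292, 0.4737 and 0.5045% to 0.9494, 0.7351, 0.8301 and 0.7980%, a 1.45-fold ratio of means with no overlap. Type IV chains went from 0.1654, 0.1168, 0.2463 and 0.2113% to 0.2551, 0.1560, 0.3529 and 0.2881%, 1.42-fold, with overlap but higher in 4 of 4 replicates. Type VI chains stayed at 1.01-fold, higher in 2 of 4 replicates, and transmembrane chains were at 0.788-fold, higher in 0 of 4. These sums are dominated by the few abundant genes and were given no test.

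**Figure D3:**
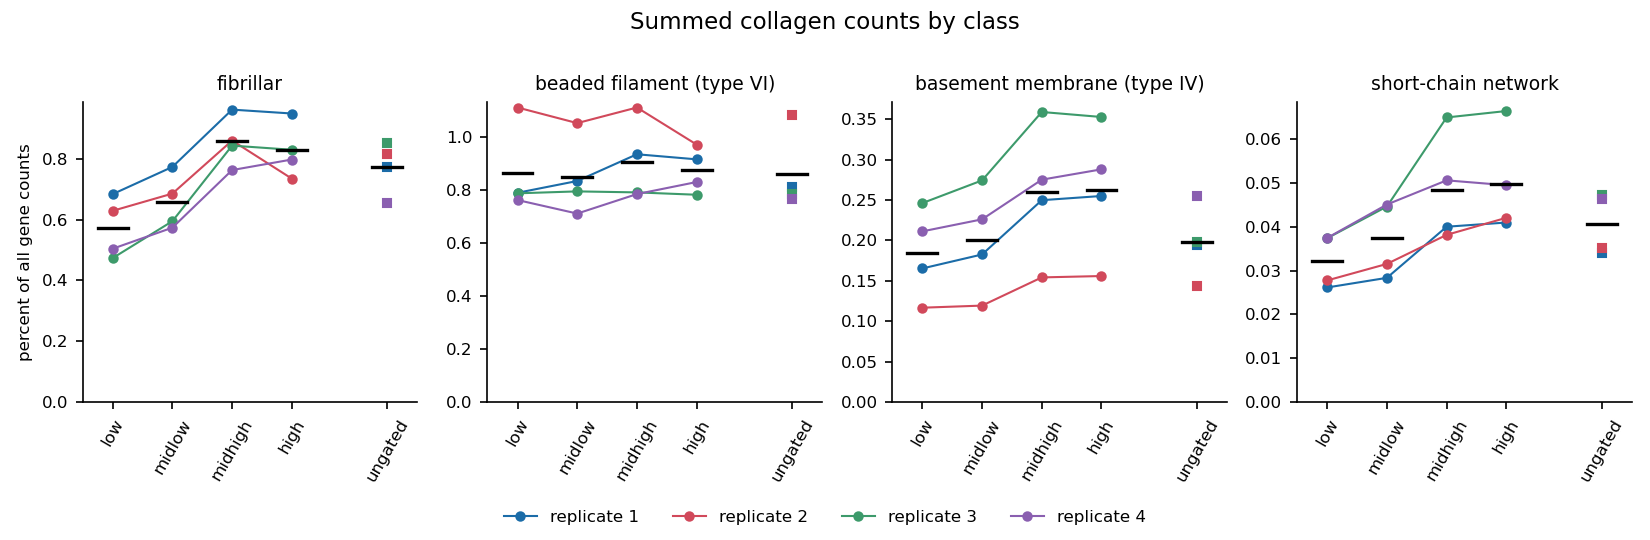
Share of gene counts (percent) taken by the fibrillar, type VI, type IV and short-chain collagen genes in each library of the sort experiment, by group, with points for replicates and black bars for group means. The fibrillar mean is 0.5729% in low dye and 0.8281% in high dye, and the type VI mean is 0.8638% and 0.8762%.

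Chains that share a molecule were set against each other per transcript length, as log2 ratios within a library. COL1A1 over COL1A2 was -0.05, -0.09, 0.10 and 0.01 in low dye, and -0.24, -0.37, -0.33 and -0.22 in high dye. The groups did not overlap, and the mean ratio fell by 0.28 (from -0.01 ± 0.09 to -0.29 ± 0.07, SD, n = 4). Other lengths would shift this ratio by the same amount in every library. The fall between gates does not depend on them, but which chain is the higher does, and that was not settled here. COL4A1 over COL4A2 went the other way, from -0.74 ± 0.19 to -0.42 ± 0.19, higher in 4 of 4 replicates with overlapping groups. COL6A1 over COL6A2 was -0.40 ± 0.06 in low dye and -0.38 ± 0.09 in high dye. COL8A1 over COL8A2 was 9.98 ± 1.71 in low dye and 7.96 ± 0.36 in high dye, lower in high dye in 4 of 4 replicates with overlapping groups. Low dye replicate 4, at 12.29, rests on a COL8A2 level below the limit that a count of 0 allows.

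Across the 4 ordered gates, tested as a trend with equal steps, 12 of 27 collagen genes rose and 1 fell with dye (26.2% of 14419 genes called, 14.0% higher and 12.3% lower). With the block 19 rose and 2 fell (43.8%, 23.1% higher and 20.7% lower). The trend shares its low and high dye libraries with the comparison above, and its calls include the 9 genes called there. The other 4 were COL1A1 (log2 slope 0.15 ± 0.05 a gate, SE, edgeR adjusted p = 0.034), COL8A1 (0.22 ± 0.07, adjusted p = 0.021), COL11A2 (0.29 ± 0.09, adjusted p = 0.024) and COL19A1 (0.36 ± 0.12, adjusted p = 0.036). Each of these 4 calls rested on single libraries. COL1A1 lost it without low dye replicate 2, 3 or 4, midlow replicate 3 or high dye replicate 1, and COL8A1 without low dye replicate 1 or 2 or high dye replicate 3. COL11A2 lost it without high dye replicate 1 or 3 or low dye replicate 4, and COL19A1 without high dye replicate 1 or 3 or low dye replicate 1. COL11A2 and COL19A1 also lost it with no filter on low counts, and COL1A1 and COL19A1 with the outer steps counted as 2 units. The COL3A1 trend (0.47 ± 0.14, SE, edgeR adjusted p = 0.021) was lost without low dye replicate 1 or 3 or high dye replicate 4. COL11A1 rose by 0.83 ± 0.17 a gate (edgeR adjusted p = 0.0019) and COL8A2 by 0.75 ± 0.14 (adjusted p = 0.00093). COL13A1 fell by 0.15 a gate (edgeR adjusted p = 0.0093).

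By group means, 13 of the 27 genes were highest in midhigh and 11 in high dye, 1 in midlow and 2 in low dye. The lowest mean was in low dye for 21. Means went up at each of the 3 steps for 10 genes and down at each for 1, COL13A1. These orders were not counted over all genes. COL1A1 had means of 2591 ± 480.3, 2865 ± 501, 3698 ± 547 and 3379 ± 532 CPM from low to high dye (SD, n = 4), so its mean was highest in midhigh, though midhigh and high overlapped. Between midhigh and midlow, edgeR called 0 of 27 collagen genes and 0.0% of all genes, and 9 collagen genes had an unadjusted p under 0.05, all higher in midhigh, as did 13.0% of all genes in either direction. DESeq2 called 1, COL5A1. With the block 14 were called, all higher, where 10.8% of all genes were called (5.52% higher, 5.27% lower). COL5A1 and COL11A2 had no overlap between midlow and midhigh (8.2% of all genes had none), with COL5A1 at 378, 352, 385 and 361 CPM in midlow and 532, 464, 562 and 453 CPM in midhigh. Its log2 fold change was 0.45 ± 0.10 (SE, edgeR adjusted p = 0.16, and 0.0013 with the block).

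The outer steps gave 0 calls, for midlow against low dye (0.0% of all genes, 2 collagen genes at an unadjusted p under 0.05, COL5A1 and COL5A2, or 8 with the block, and 2.21% and 7.94% of all genes) and for high dye against midhigh (0.0%, and 0 collagen genes at an unadjusted p under 0.05 in either edgeR fit, with 2.57% and 8.07% of all genes). DESeq2 was not run on these steps. The inner step, midlow to midhigh, was set against the top step in 1 contrast chosen after the values were seen, and 0 of 27 collagen genes were called (0.0% of all genes, with or without the block). In that contrast 1 collagen gene, COL5A1, had an unadjusted p under 0.05, and 11 with the block, all with the larger rise at the inner step, beside 2.28% and 6.98% of all genes.

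The ungated cells place these levels against the unsorted population. The ungated mean lay between the low and high dye means for 20 of 27 genes, which was not counted over all genes. For COL11A1 the ungated libraries stood at 51.2, 87.7, 254 and 120.2 CPM, and in each replicate between the low and the high dye library. For COL3A1 they stood at 20.8, 65, 65.3 and 53.3 CPM, all but replicate 1 above every low dye library. Low dye against ungated gave 0 calls in edgeR (0.0754% of all genes), with 7 collagen genes at an unadjusted p under 0.05 (13.0% of all genes), all lower in low dye, and 2 calls in DESeq2 (COL1A2 and COL5A1). With the block 9 were lower in low dye and 0 higher (10.8% of all genes called, 3.59% higher and 7.2% lower): COL1A1, COL1A2, COL3A1, COL4A5, COL4A6, COL5A1, COL5A2, COL8A1 and COL11A1. The log2 fold change was -1.57 ± 0.16 for COL11A1 and -1.47 ± 0.21 for COL3A1 in that fit (SE, edgeR adjusted p = 8.1e-06 and 0.00022).

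High dye against ungated also gave 0 calls in edgeR (0.00685% of all genes), with 3 at an unadjusted p under 0.05 (10.6% of all genes), all higher in high dye, and 1 call in DESeq2, COL25A1. With the block 7 were higher in high dye (7.59% of all genes called, 3.66% higher and 3.93% lower): COL4A1, COL4A2, COL5A1, COL8A1, COL8A2, COL11A1 and COL25A1. COL25A1 alone had no overlap between the groups (3.4% of all genes had none), at 4.29, 4.65, 3.32 and 2.78 CPM in ungated libraries. In the fit with the block its log2 fold change was 0.98 ± 0.17 (SE, edgeR adjusted p = 0.0039). Both comparisons use the same ungated libraries. For COL4A1, ungated replicate 3 was at 839.9 CPM, below each of the 4 gates of replicate 3, which ran from 1021 to 1720 CPM.

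Collagen levels differed between replicate numbers as well as between gates. In an additive split of the log2 CPM over the 4 gates, the gate took a median of 36.4% of a collagen gene's sum of squares and the replicate number 53.6%, against medians of 25.8% and 36.3% over all genes tested. Noise alone also gives each term a share, and the genes were not matched for level. The gate took more than the number in 11 of 27 genes. It took 81.5% for COL5A1, 73.2% for COL8A2 and 73.1% for COL25A1. The number took 88.5% for COL7A1, 86.6% for COL6A1, 84.5% for COL4A2 and 77.4% for COL4A1. In 14 of 27 genes the same replicate number was the highest in all 4 gates, in 8 the same was the lowest, and in 4 both (COL4A1, COL4A2, COL7A1 and COL11A1). This was not counted over all genes, where same-numbered libraries also deviated together, so it is not shown to be particular to collagen. COL6A1, COL6A2 and COL27A1 were highest in replicate 2 in all 5 groups.

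**Figure D4:**
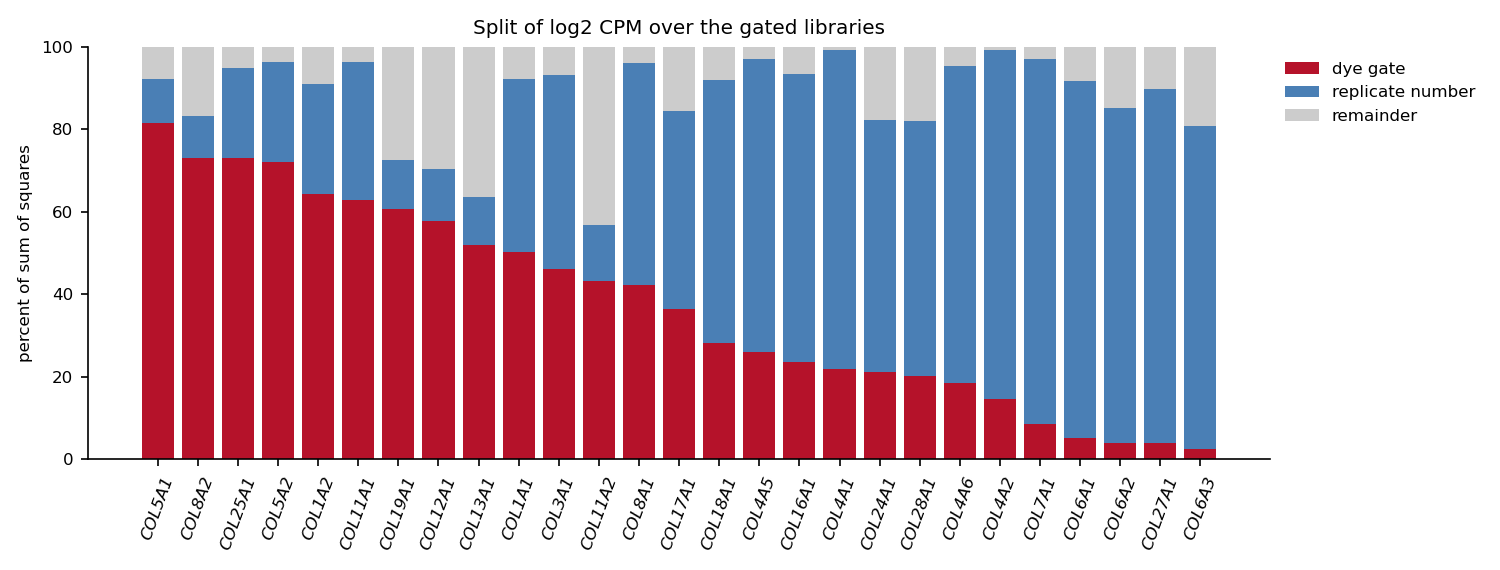
Share (percent) of each collagen gene's sum of squares of log2 CPM over the 16 gated libraries that goes to the dye gate, to the replicate number and to the rest. The gate share runs from 2.48% for COL6A3 to 81.5% for COL5A1.

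LSD1 inhibition was set against the DMSO and no drug libraries, 2 against 2. No collagen gene was called (0 of 30 by edgeR, where 0.114% of 14002 genes were called), 10 had an unadjusted p under 0.05 (6.78% of all genes), all higher, and DESeq2 called 2, COL3A1 and COL4A1. The median log2 fold change was 0.22 over the collagen genes and 0.0 over all genes, and 23 of 30 collagen genes were above 0. Groups did not overlap for 19 of 30, where 34.0% of all genes did not overlap. The DMSO library shares its replicate number with LSD1 inhibition replicate 1 and the no drug library with replicate 2, so the 2 controls differ in solvent as well as in number.

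COL3A1 stood at 66.6 CPM in DMSO and 53.5 CPM in no drug, and at 115 and 97 CPM under LSD1 inhibition. Both treated libraries exceeded both controls. The log2 fold change was 0.83 ± 0.15 (SE, edgeR adjusted p = 0.14). COL4A1 stood at 825 and 837 CPM in the controls and at 1270.2 and 1275 CPM under LSD1 inhibition. The difference was 0.62 ± 0.10 on the log2 scale (SE, edgeR adjusted p = 0.14). Its ratios to the control of the same number, 0.62 and 0.61 on the log2 scale, were nearly equal. COL4A2, at 973 and 1045 CPM in the controls, stood at 1324 and 1371 CPM under LSD1 inhibition (0.43 ± 0.11, SE, edgeR adjusted p = 0.33).

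COL8A2 stood at 1.05 and 1.06 CPM in the controls and at 2.5 and 2.63 CPM under LSD1 inhibition. The treated libraries were higher by a log2 fold change of 1.28 ± 0.29 (SE, edgeR adjusted p = 0.25). COL5A1 stood at 427 and 482 CPM in the controls and at 588 and 634 CPM when treated (0.43 ± 0.12, SE, edgeR adjusted p = 0.37). COL11A1 had log2 ratios of 0.48 and 0.49 to those 2 controls, COL1A1 0.27 and 0.36, and COL1A2 0.28 and 0.24. COL25A1, which was higher in high dye, had a log2 fold change of 0.09 ± 0.25 here, and COL13A1, lower in high dye, one of 0.16 ± 0.10.

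The type VI genes gave small differences here. COL6A1 had a log2 fold change of -0.09 ± 0.15 and COL6A3 of 0.11 ± 0.14, with edgeR adjusted p of 0.98 and 0.97. COL6A2 stood at 1554 and 1751 CPM in the controls and at 1266 and 1589.8 CPM under LSD1 inhibition, lower than the control of the same number in both cases, with overlapping groups. The smooth muscle list summed to 144 to 148 CPM under LSD1 inhibition against 74.6 CPM in DMSO and 81.5 CPM in no drug, and proliferation genes to 1200 to 1570 CPM against 1800 and 1430 CPM. Their part in these values was not tested.

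DOT1L inhibition is a single library, so its ratio to the DMSO library has no replicate check and no test. Of the 30 collagen genes measured, 4 were at least 2-fold higher and 0 at least 2-fold lower (5.35% of 14990 genes passed 2-fold, 4.31% higher and 1.04% lower). COL25A1 went from 2.79 to 7.28 CPM, a log2 ratio of 1.34 with a prior count of 2. COL3A1 went from 66.6 to 166 CPM (1.32), COL8A2 from 1.05 to 2.81 CPM (1.32) and COL16A1 from 8.07 to 18.2 CPM (1.16). The no drug library differed from DMSO by less than 2-fold for these 4 genes, at 2.73, 53.5, 1.06 and 7.27 CPM. The median log2 ratio was 0.24 over the collagen genes and 0.00 over all genes measured.

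The type IV chains did not share a direction under DOT1L inhibition. COL4A1 was at 709 CPM against 825 in DMSO (a log2 ratio of -0.22) while COL4A6 was at 22.9 CPM against 13.6 (0.74). The 3 type VI chains were lower than in DMSO, with log2 ratios of -0.12 for COL6A1 and -0.11 for COL6A2. COL6A3 had the lowest ratio, -0.43, at 3382 against 4544 CPM, but no drug was also lower than DMSO, at 3638 CPM. Both drug comparisons use the DMSO library. For COL8A2 the log2 value was 1.28 under LSD1 inhibition and 1.32 under DOT1L inhibition, for COL3A1 0.83 and 1.32, for COL25A1 0.09 and 1.34, and for COL4A1 0.62 and -0.22.

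**Figure D5:**
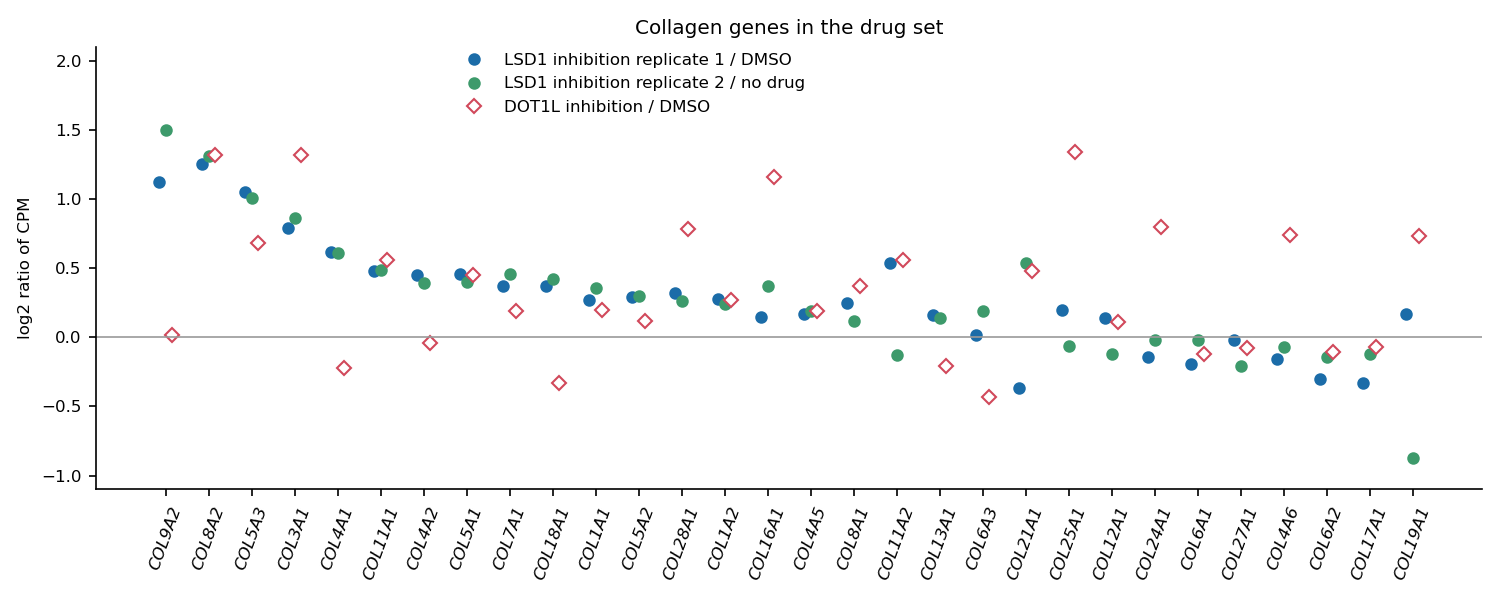
log2 ratio of CPM for the 30 collagen genes measured in the drug experiment. Filled points are the 2 pairs of an LSD1 inhibition library and the control of the same replicate number (plain ratios), and open diamonds are DOT1L inhibition over DMSO (prior count 2, a single pair of libraries). Points for COL3A1 lie at 0.79, 0.86 and 1.32.

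Genes that modify, process, bind or degrade collagen were counted from 7 lists, between high and low dye. Over these lists 11 of 69 genes tested were called (15.9%), all higher, where 17.7% of all genes were called (9.39% higher and 8.35% lower), and with the block 33 were higher and 7 lower, where 37.2% of all genes were called (19.8% higher and 17.4% lower). Without the block the share called in either direction was near that of all genes. Among 12 prolyl and lysyl hydroxylases, 2 were higher (4 higher and 1 lower with the block): P4HA2 (log2 fold change 0.68 ± 0.12, SE, edgeR adjusted p = 0.0015) and P4HA1 (0.50 ± 0.16, adjusted p = 0.034), catalytic subunits of prolyl 4-hydroxylase. None of 18 glycosylation, folding and secretion genes was called by edgeR (3 higher and 1 lower at an unadjusted p under 0.05, 1 higher by DESeq2, and 5 higher and 1 lower with the block). That unadjusted threshold was passed by 32.2% of all genes without the block. Of 6 propeptide processing genes tested, 1 was higher, ADAMTS2, which removes amino-terminal propeptides of fibrillar collagens (0.66 ± 0.12, adjusted p = 0.0015), or 3 higher and 1 lower with the block.

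Of the 5 lysyl oxidases that cross-link collagen, 2 were higher (4 with the block): LOXL4 (1.68 ± 0.35, SE, edgeR adjusted p = 0.0039) from 2.86 to 9.22 CPM on average, and LOXL2 (0.28 ± 0.09, adjusted p = 0.045). Of 8 collagen receptors tested, 2 were higher (4 higher and 2 lower with the block). These were ITGA11, an integrin chain of fibroblasts that binds type I collagen, from 9.53 to 45.2 CPM on average (2.24 ± 0.38, edgeR adjusted p = 0.0013), and DDR1, a collagen receptor kinase (0.88 ± 0.16, adjusted p = 0.0022). Of 13 tested proteoglycans and other fibril organizers, 4 were higher (9 higher and 1 lower with the block): LUM (2.02 ± 0.60, edgeR adjusted p = 0.026), THBS2 (0.65 ± 0.17, adjusted p = 0.011), SPARC (0.58 ± 0.15, adjusted p = 0.014) and FN1 (0.54 ± 0.11, adjusted p = 0.0032). None of 7 collagen-degrading proteases tested was called by edgeR (0 at an unadjusted p under 0.05, where 32.2% of all genes were, and 0 by DESeq2). With the block 4 of these proteases were higher and 1 lower.

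The medians of these lists between high and low dye ran from 0.11 to 0.59 on the log2 scale, the highest being that of the organizers. Under LSD1 inhibition edgeR called 0 of 71 genes tested over the 7 lists, where 0.114% of all genes were called. At an unadjusted p under 0.05 in edgeR, 13 were higher and 2 lower, beside 6.78% of all genes in either direction. DESeq2 called 3 of the listed genes higher.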

How the data were processed

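Poly(A) RNA of 25 hiF-T libraries was extracted with an RNeasy Micro kit and made into libraries with a NEBNext Ultra II RNA kit, which does not mark strand, per the labels' protocols. The authors deposited raw counts per gene and library, made with STAR and HTSeq on hg38 (GRCh38) per the submitters' processing notes; versions and the strand setting are not given in the sources used here. Of 58302 gene IDs, 57532 had a symbol and 58039 were in GENCODE 29. The totals of 15015039 to 20030093 gene counts a library limit the precision for genes near 1 CPM, and limits from a count of 0 cover counting error only.

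Counts were tested with edgeR 4.0.16 (R 4.3.3): TMM scaling, filterByExpr (minimum count 10, total 15), quasi-likelihood F test and Benjamini-Hochberg adjustment over all genes tested, called under 0.05. All 5 sort groups entered 1 fit, the trend used the 4 gates, and LSD1 inhibition was fitted with DMSO and no drug. SE was taken as the absolute log2 fold change over the root of F. The fits were tested on simulated data drawn without an effect of the replicate number, so that check cannot bear on the choice between fits with and without the block. Biological replicate numbers were taken to pair the sort libraries, which the labels do not state. After removing group means, all 40 correlations of same-numbered libraries were over 0.1 (0.146 to 0.618, mean 0.455). Of 120 correlations of differently numbered libraries, 16 were over 0.1 (-0.473 to 0.288, mean -0.152). Removing group means forces the mean of these below 0 when same-numbered libraries correlate, so it is not a separate check. Because same-numbered libraries correlated, results with the number as a block stand beside the others where they differ. Other settings were DESeq2 1.42.0, its size factors, other filters, fits of 2 groups, other controls and spacings, and leaving out each library. Genes named are collagen genes called in a comparison, the 12 with the highest mean CPM, partner chains and up to 4 called genes of each pathway list; others appear as examples of untested or uncalled genes or because they differed under DOT1L inhibition, chosen after their values were seen. Members and lists were chosen with earlier results of these data known. Levels per length use the longest principal coding transcript of GENCODE 29. Sequences come from GENCODE 29 transcripts and RefSeq promoter windows (32 of 44 genes matched). Protein sequences were not used here.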

Additional observations from a re-analysis of the deposited data

Results flagged for a closer look

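In the 18 named collagen genes, 90 groups of 4 sort libraries were searched for a highest or lowest library set far apart from the other 3, and 8 groups held one. Chance gives about 1 in 20 for independent groups. These groups are not independent, since same-numbered libraries deviated together, so the count of 8 cannot be judged against that rate. COL6A1 had 3 of them, each with replicate 2 as the highest: 2280 CPM in low dye (next library 1430 CPM), 2260 CPM in midlow (next 1490 CPM) and 2370 CPM in midhigh (next 1590 CPM). COL6A2 was highest in low dye replicate 2 at 2360 CPM (next 1540 CPM). COL1A1 was lowest in ungated replicate 4 at 2820 CPM (next 3380 CPM). COL8A2 was highest in ungated replicate 3 at 1.20 CPM (next 0.515 CPM), COL11A2 in ungated replicate 2 at 1.76 CPM (next 0.996 CPM) and COL25A1 in low dye replicate 3 at 4.54 CPM (next 2.63 CPM).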

How the results depend on the processing

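For high against low dye, 9 collagen genes were called, and 20 with the replicate block; leaving out 1 library gave 5 to 10, with 5 without high dye replicate 3. For the trend 13 were called, 21 with the block and 10 to 14 without 1 library. Where 0 were called, the alternatives gave, for midhigh against midlow, 1 with DESeq2, 2 with no filter on low counts and 14 with the block; for high dye against ungated, 1, 1 and 7; and for low dye against ungated, 2, 4 and 9. For LSD1 inhibition, also 0, the counts were 2 with DESeq2, 15 with the block (14 higher and COL6A2 lower, where 16% of all genes were called), 3 with DMSO as the only control and 2 with no drug as the only control, and 0 to 3 without 1 library (2 without the DMSO library, 3 without the no drug library, 1 without LSD1 inhibition replicate 2); where 1 library is left in a group, it is assumed to vary like the others. The drug experiment has only 2 such numbers, which no label or check shows to pair its libraries. No value called under either setting changed sign. Of 1602 single gene values under an alternative, 52 changed sign, all uncalled, among them 4 of COL6A1, 4 of COL6A2 and 5 of COL6A3 between high and low dye. Of the single gene results under settings other than leaving out a library, 593 kept their side of the threshold, 66 passed it newly and 7 fell short; on leaving out a library these were 894, 12 and 30. The cause was not tested. Depth limits the genes near or under 1 CPM, such as COL8A2, COL11A2 and COL19A1.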
